A study of Homo sapiens with 12 samples.

Results

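The genes described here are 40 genes of ribosome biogenesis and RNA polymerase I transcription, chosen by symbol, and 36 of them were measured among the 18417 genes of the arrays. A gene was read on its brightest probe set annotated to that symbol alone. No probe set carried GNL3 or DDX18, and NOP56 and PPAN had only probe sets shared with other genes, so these 4 have no values. Transcripts were measured on Affymetrix arrays in HepG2, an established human hepatoma line, in 6 groups of 2 arrays. Each group combined a line, carrying either a non-relevant control hairpin (sh-con) or a hairpin targeting p53 (sh-p53), with 24 h in DMSO, in 10 uM Nutlin or in 0.5 mM AICAR. Nutlin keeps p53 from binding MDM2, a ubiquitin ligase by which p53 is degraded, and AICAR activates the kinase AMPK. The labels name 1 line for each hairpin and no further clone, so the effect of knockdown and any further difference between the 2 lines cannot be told apart. Duplicates were plated as separate wells. The p-values therefore rest on the spread between duplicate wells, pooled over the 6 groups, and not on that between independently made lines.

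Ribosomes are assembled in the nucleolus, where RNA polymerase I transcribes the precursor of the large rRNAs. The small-subunit processome and box C/D and H/ACA ribonucleoproteins (snoRNPs) fold, modify and cleave this precursor, and further factors build the large subunit and release both subunits to the cytoplasm. Growing cells use much of their transcription for this work, MYC is a known activator of many of these genes, and disturbed ribosome assembly is known to stabilise p53 through free ribosomal proteins that bind MDM2.

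The 6 groups were checked on known p53 targets and on liver markers. Changes are log2 differences of group means ± SE from 1 limma fit of all 12 arrays, and a gene was called, or said to rise or fall, when its adjusted p over the 13813 genes tested was under 0.05. CDKN1A, a cyclin-dependent kinase inhibitor induced by p53, was lower in sh-p53 than in sh-con in DMSO by -0.76 ± 0.13 on the log2 scale (SE, adjusted p = 0.00625). With Nutlin it rose by 2.84 ± 0.13 in sh-con and by 1.39 ± 0.13 in sh-p53, a difference between the lines of -1.45 ± 0.19 (adjusted p = 3.82e-05). With AICAR the group means of CDKN1A were 9.26 in sh-con and 7.99 in sh-p53, against 6.99 and 6.23 in DMSO. MDM2, which p53 also induces, had means of 10.55 in DMSO and 12.14 with Nutlin in sh-con. In sh-p53 its means were 9.87 and 11.19, so it was also higher with Nutlin in that line. With AICAR they were 11.25 in sh-con and 10.04 in sh-p53. The hairpin's target transcript is not analysed here. All 12 hepatocyte markers lay above the dim limit (4.58 on the log2 scale, below which genes were not tested), with means of 10.8 to 12.8, while 0 of 6 endothelial markers did. Of 6 fibroblast markers 4 lay above it, with DCN and LUM below. Of the 4 leukocyte markers measured 2 lay above it, with PTPRC and CD3E below, and so did 5 of 6 cholangiocyte markers. Of the markers of these other cell types, 3 were called with a compound against DMSO and are named after their values were seen. CD14 (leukocyte) rose by 0.92 ± 0.15 with Nutlin and by 0.93 ± 0.15 with AICAR in sh-con and by 0.48 ± 0.15 with AICAR in sh-p53. KRT19 (cholangiocyte) rose by 1.07 ± 0.14 with Nutlin in sh-con and changed by -0.46 ± 0.14 with AICAR in sh-p53, where it was called lower. EPCAM (cholangiocyte) changed by -0.39 ± 0.14 with Nutlin and 0.53 ± 0.14 with AICAR in sh-con, both called. LST1, the other leukocyte marker tested, and the 4 fibroblast markers tested were not called with either compound. The part of other cell types in the results was not tested. Duplicate arrays had a Pearson r of 0.983 to 0.994 across genes, and array medians ranged from 5.64 to 5.84.

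All 36 measured genes passed the filter on dim genes, and none was near it. Their means over the 12 arrays ran from 7.43 to 11.9 on the log2 scale with a median of 8.73, against a median of 6.99 over the 13813 genes tested. Levels of different genes come from different probe sets and are not compared here. In RNA from whole cultures, fewer cells of a kind and less RNA per cell cannot be told apart.

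The promoters of these genes are shown because the genes moved together and because MYC binds the E-box, whose letters are CACGTG. RefSeq windows of assembly GRCh38.p14, from 250 bases before to 50 bases after a gene's start, were searched on both strands, and 30 of the 36 measured genes had at least 1 window. An E-box lay in a window of 13 of the 30 (43.3%), against 12.2% of the 10836 tested genes with a window and 7.26% of all 35116 windows. A core of ETS-family sites, spelled CCGGAAG, lay in 12 of the 30 (40%), against 20.2% of the tested genes and 10.3% of all windows, and neither motif contains the other. A match is a description of the sequence and not a bound site. The windows below run from 100 bases before to 50 bases after the start, read 5′ to 3′ along the gene, with the E-box in capitals. UTP20, RRP9, NOP14, FBL and LTV1 are shown because they hold an E-box and fell with Nutlin, and DDX10 and DKC1 because they also fell and hold none in the window.
UTP20 (chr12:101280005-101280154, plus strand): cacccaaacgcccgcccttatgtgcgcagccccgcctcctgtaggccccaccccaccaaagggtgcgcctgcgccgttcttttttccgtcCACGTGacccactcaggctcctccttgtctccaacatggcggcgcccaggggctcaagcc
RRP9 (chr3:51941855-51942004, minus strand): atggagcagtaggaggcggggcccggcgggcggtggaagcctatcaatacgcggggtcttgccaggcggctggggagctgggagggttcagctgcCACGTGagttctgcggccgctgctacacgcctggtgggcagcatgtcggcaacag
NOP14 (chr4:2963357-2963506, minus strand): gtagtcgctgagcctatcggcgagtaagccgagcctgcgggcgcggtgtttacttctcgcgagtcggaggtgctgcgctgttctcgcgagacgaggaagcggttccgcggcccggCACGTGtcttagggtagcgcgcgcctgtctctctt
FBL (chr19:39846330-39846479, minus strand): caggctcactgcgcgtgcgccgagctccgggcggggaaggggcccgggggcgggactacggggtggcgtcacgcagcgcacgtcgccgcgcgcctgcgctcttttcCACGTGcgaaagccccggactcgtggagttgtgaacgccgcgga
LTV1 (chr6:143843238-143843387, plus strand): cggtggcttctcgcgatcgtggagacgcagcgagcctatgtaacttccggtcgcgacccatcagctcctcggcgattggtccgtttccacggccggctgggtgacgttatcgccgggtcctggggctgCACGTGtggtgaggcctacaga
DDX10 (chr11:108664969-108665118, plus strand): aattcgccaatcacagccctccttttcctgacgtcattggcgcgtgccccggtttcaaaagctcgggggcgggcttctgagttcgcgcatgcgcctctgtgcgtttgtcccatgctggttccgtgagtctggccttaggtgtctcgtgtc
DKC1 (chrX:154762764-154762913, plus strand): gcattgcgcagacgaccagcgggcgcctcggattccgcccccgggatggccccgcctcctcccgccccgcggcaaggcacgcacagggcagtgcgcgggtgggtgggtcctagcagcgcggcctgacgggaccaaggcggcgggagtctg

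In these windows the first base of the E-box lay at position -10 in UTP20 and at -5 in RRP9, counting the start as 0. It lay at 6 in FBL, at 15 in NOP14 and at 28 in LTV1. Over all measured members, 13 of the 14 E-boxes began within 50 bases of the start (92.9%), against 606 of 1602 (37.8%) in tested genes. The exception was 1 of the 2 E-boxes of UTP18, which began at -89. The other measured members with an E-box were WDR43, BYSL, DDX21, NOP2, UTP4, MYBBP1A and PES1. Genes with and without the motif are set side by side below, after the responses.

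In DMSO none of the 36 genes was called between the lines. In limma's test 0 were lower and 0 higher, and 0 reached an unadjusted p under 0.05, while 0.384% of all genes tested were called lower and 0.261% higher in sh-p53. The difference of sh-p53 minus sh-con had a median of -0.02 on the log2 scale and ran from -0.30 for NOB1 to 0.13 for PES1. For NOB1, the endonuclease that makes the last cut of 18S rRNA, the sh-con arrays read 9.32 and 9.16 and the sh-p53 arrays 8.95 and 8.93. Its groups did not overlap, with an adjusted p of 0.999 and an interval of the difference from -0.67 to 0.08.

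With Nutlin in sh-con, ribosome biogenesis transcripts fell in every role list. Of the 36 genes 28 fell (77.8%) and 0 rose, against 18.9% of the 13813 genes tested called lower and 11.3% higher. Among the 5582 tested genes at least as bright as the dimmest member, 28.8% were called lower. The median change of the 36 was -0.70 on the log2 scale, which is 61.4% of the DMSO level, beside a median of 0.01 over all genes tested. Both Nutlin arrays lay below both DMSO arrays for all 36 genes, against 37.1% of all genes tested. The changes ran from -1.35 for UTP20 to -0.21 for WDR43. All 36 changes kept their negative sign when the arrays were scaled again by quantiles or centred on their medians.

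**Figure D1:**
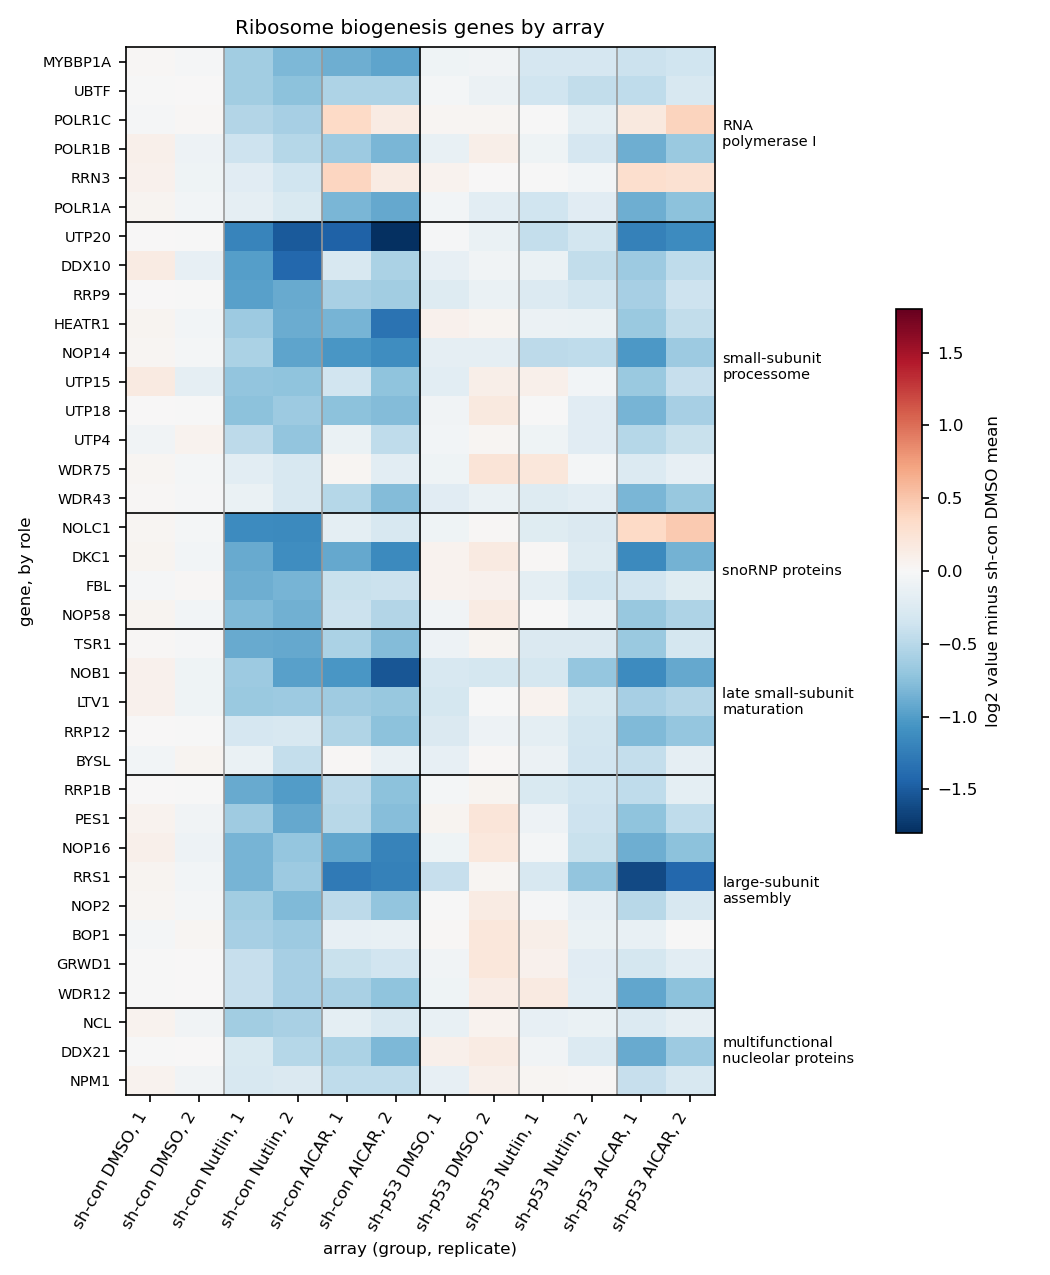
Heat map of the 36 measured genes (vertical axis, grouped by role) in each of the 12 arrays (horizontal axis, group and replicate), as the log2 value minus that gene's mean in the sh-con DMSO arrays; blue is lower and red higher. The sh-con Nutlin columns are blue for all 36 genes and the sh-p53 Nutlin columns are pale, while both AICAR pairs are mostly blue, with POLR1C and RRN3 red in both lines and NOLC1 red in sh-p53.

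Genes of RNA polymerase I transcription fell with Nutlin in 4 of 6 cases. MYBBP1A, a nucleolar protein that binds MYB and other transcription factors, read 8.44 and 8.40 in sh-con DMSO and 7.80 and 7.61 with Nutlin. It fell by 0.71 ± 0.13 (adjusted p = 0.000421). UBTF, the factor that opens rDNA chromatin for RNA polymerase I, went from 9.05 and 9.07 to 8.43 and 8.32, a fall of 0.68 ± 0.13. The subunits POLR1C, which RNA polymerase III shares, and POLR1B, which forms the catalytic core with POLR1A, fell by 0.56 ± 0.14 and by 0.44 ± 0.15. The POLR1B call was lost without any 1 of the 4 arrays compared, with changes from -0.53 to -0.36. The largest subunit, POLR1A, read 9.32 and 9.22 in DMSO and 9.11 and 9.0 with Nutlin, a change of -0.21 ± 0.14 that was not called (adjusted p = 0.236). Its Nutlin arrays lay below its DMSO arrays, and the interval of the change ran from -0.50 to 0.07. RRN3, which recruits the polymerase to the promoter, changed by -0.28 ± 0.14 (adjusted p = 0.127); near-identical pseudogene copies make its reading uncertain.

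In the small-subunit processome, the complex that folds and cleaves the precursor of 18S rRNA, 8 of 10 genes fell. UTP20, a large repeat protein of the processome, read 8.98 in both DMSO arrays and 7.79 and 7.47 with Nutlin. It fell by 1.35 ± 0.17 (adjusted p = 1.11e-05), to 39.2% of its DMSO level. DDX10, a nucleolar RNA helicase, went from 8.0 and 7.72 to 6.87 and 6.44 and fell by 1.20 ± 0.17 (adjusted p = 4.39e-05), and RRP9, a protein of the U3 snoRNP, went from 8.30 and 8.28 to 7.31 and 7.38 and fell by 0.94 ± 0.13. In all 3 genes both Nutlin arrays lay well below both DMSO arrays. HEATR1, UTP4 and UTP15, which act in both rDNA transcription and processing, and the processome proteins NOP14 and UTP18 also fell, with changes from -0.78 to -0.58. WDR43, a processome protein whose window holds an E-box, read 10.36 and 10.33 in DMSO and 10.22 and 10.06 with Nutlin; its change of -0.21 ± 0.14 was not called (adjusted p = 0.258), and that of WDR75 was -0.24 ± 0.15.

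All 4 measured snoRNP genes fell with Nutlin in sh-con, with a median of -0.93. NOLC1, a nucleolar chaperone of snoRNP assembly, read 9.70 and 9.63 in DMSO and 8.54 and 8.53 with Nutlin, a fall of 1.14 ± 0.13 (adjusted p = 2.75e-06). DKC1, the pseudouridine synthase of H/ACA snoRNPs, went from 9.54 and 9.45 to 8.58 and 8.38 and fell by 1.01 ± 0.15. FBL (fibrillarin, the methyltransferase of C/D snoRNPs) and NOP58, a core C/D protein, fell by 0.86 ± 0.13 and by 0.83 ± 0.14. For these 4 genes the Nutlin level was 45.5% to 56.4% of the DMSO level.

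Late small-subunit factors fell in 3 of 5 cases. TSR1, a GTPase-like assembly factor, went from 9.23 and 9.19 to 8.31 and 8.28 and fell by 0.91 ± 0.14 (adjusted p = 0.000107). NOB1 and LTV1, a chaperone of 40S assembly and export, fell by 0.82 ± 0.18 and 0.67 ± 0.15. BYSL, a 40S assembly factor, read 8.88 and 8.97 in DMSO and 8.81 and 8.50 with Nutlin, and its change of -0.27 ± 0.15 was not called (adjusted p = 0.182). RRP12, an export factor, changed by -0.29 ± 0.14 (adjusted p = 0.113).

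All 8 measured large-subunit genes fell, with changes from -0.95 to -0.51. RRP1B, a nucleolar scaffold protein, went from 8.52 and 8.51 in DMSO to 7.61 and 7.51 with Nutlin and fell by 0.95 ± 0.14 (adjusted p = 6.85e-05). PES1, BOP1 and WDR12 form the PeBoW complex of 28S rRNA processing, and they fell by 0.78 ± 0.16, 0.63 ± 0.14 and 0.51 ± 0.15. WDR12 had the smallest change of the 8, from 10.30 and 10.33 to 9.90 and 9.72. BOP1 has a second, dimmer probe set, which changed by -0.19 where the brighter one changed by -0.63, so its size depends on the probe set. NOP2 (an rRNA methyltransferase), NOP16, RRS1 and GRWD1, which act in large-subunit assembly, changed by -0.77 to -0.51.

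Among the nucleolar proteins with several functions, 1 of 3 fell. NCL (nucleolin) read 11.87 and 11.76 in DMSO and 11.19 and 11.22 with Nutlin and fell by 0.60 ± 0.13 (adjusted p = 0.00232). DDX21, an RNA helicase, changed by -0.39 ± 0.15 (adjusted p = 0.0522). NPM1 (nucleophosmin) read 12.14 and 12.01 in DMSO and 11.79 and 11.82 with Nutlin, a change of -0.28 ± 0.13 that was not called. Its 4 probe sets gave -0.24 to -0.28, and its many pseudogene copies make the reading uncertain.

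**Figure D2:**
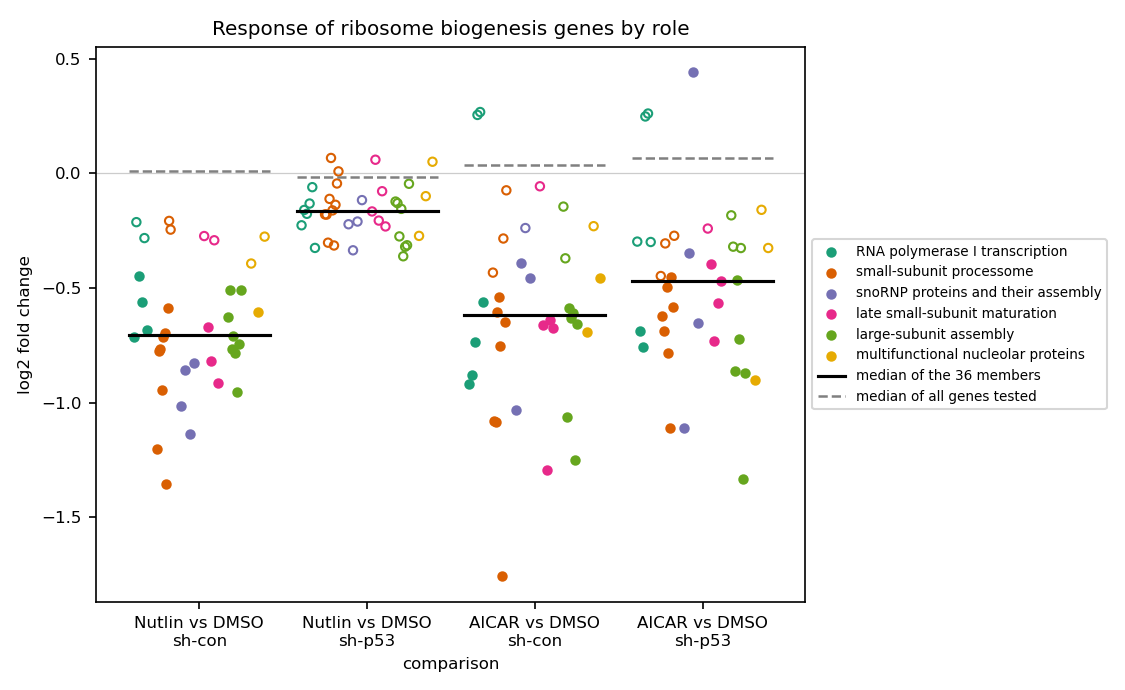
Log2 fold change against DMSO (vertical axis) of each of the 36 genes in the 4 compound comparisons (horizontal axis), coloured by role; filled points are called at an adjusted p under 0.05 and open points are not, black lines are medians of the 36 and dashed lines medians of all genes tested. The median of the 36 is -0.70 with Nutlin and -0.62 with AICAR in sh-con; in sh-p53 it is -0.16 and -0.47.

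With Nutlin in sh-p53 none of the 36 genes was called. At an unadjusted p below 0.05 the count in limma's test was 4, all lower (FBL, UBTF, PES1 and RRP1B), and the lowest adjusted p was 0.643. Of the 13813 genes tested, 564 were lower and 296 higher at that unadjusted p. Over all genes tested 0% were called lower and 0.0796% higher. The median of the 36 was -0.16, or 89.3% of the DMSO level, beside -0.02 over all genes. The changes ran from -0.36 ± 0.16 for PES1 to 0.07 ± 0.17 for UTP15. UTP20 read 8.96 and 8.86 in sh-p53 DMSO and 8.55 and 8.64 with Nutlin, a change of -0.31 ± 0.17 (adjusted p = 0.871) with an interval from -0.68 to 0.05. For 19 of the 36 both Nutlin arrays lay below both DMSO arrays, against 20.7% of all genes tested.

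The difference between the lines in the Nutlin response was tested directly, as the change in sh-p53 minus the change in sh-con. It was positive for all 36 genes with a median of 0.49, beside -0.01 over all genes. At an unadjusted p under 0.05 in limma's test, 22 of the 36 were higher and 0 lower. Of the 13813 genes tested, 1624 were higher and 1027 lower at that unadjusted p. In limma's test 8 of the 36 were called higher and 0 lower, against 4.67% and 2.73% of all genes tested. Among genes at least as bright as the dimmest member 7.18% were called higher. The largest differences were those of UTP20, at 1.04 ± 0.24 (adjusted p = 0.0112), DDX10, at 1.02 ± 0.24 (adjusted p = 0.0128), NOLC1, at 0.93 ± 0.18 (adjusted p = 0.00288), and RRP9, at 0.83 ± 0.19 (adjusted p = 0.00831). NOLC1 read 9.58 and 9.69 in sh-p53 DMSO and 9.46 and 9.40 with Nutlin, while the same treatment in sh-con took it to 8.54 and 8.53. The other 4 were DKC1, LTV1, NOP58 and TSR1, at 0.68 to 0.79. By role, these 8 were 3 processome genes, 3 snoRNP genes and 2 late small-subunit genes, with 0 of 6 polymerase I genes and 0 of 8 large-subunit genes. At an unadjusted p under 0.05, 2 of the 6 polymerase I genes and 5 of the 8 large-subunit genes were higher. Their median differences were 0.31 and 0.48. The roles were not tested against each other. When the arrays were scaled again by quantiles, POLR1A turned to -0.05 and the other 35 kept their sign.

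The number of genes called in this interaction rested on single arrays. It was 2 without sh-p53 DMSO array 1 or without sh-con Nutlin array 2, 3 without sh-con DMSO array 1 or sh-p53 Nutlin array 1, and 5 without sh-con DMSO array 2 or sh-con Nutlin array 1. In these fits the lone array of a group is assumed to vary like the other groups. NOLC1 was called in all 21 fits, UTP20 and RRP9 in 20 and DDX10 in 17. TSR1 was called in 10.

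**Figure D3:**
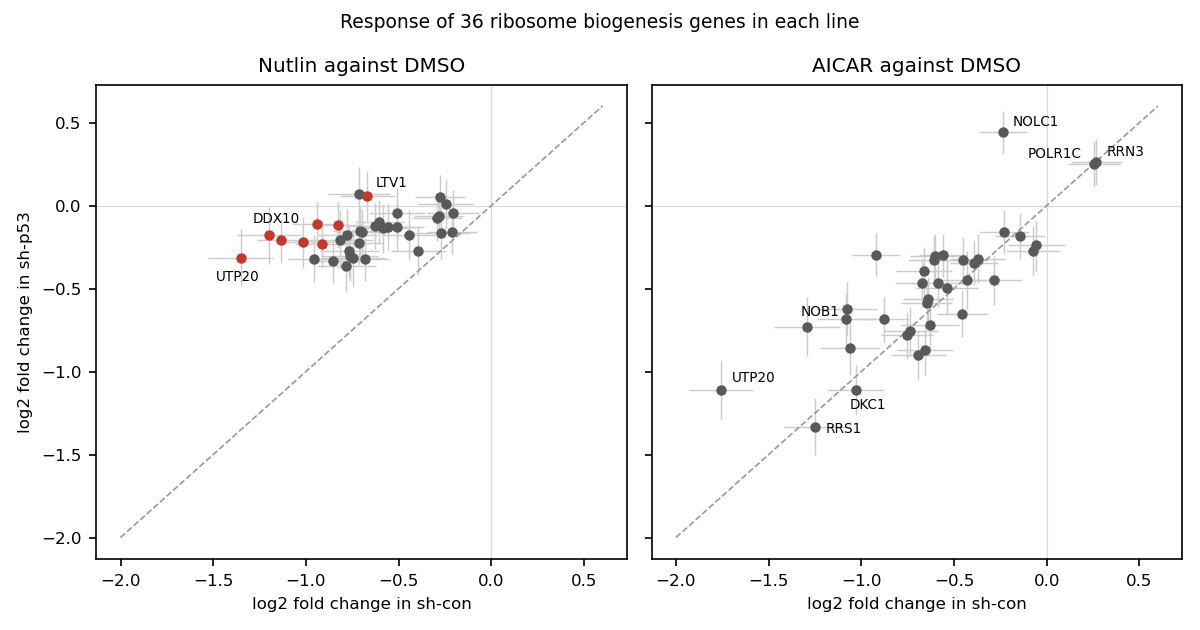
Log2 fold change against DMSO in sh-con (horizontal axis) and in sh-p53 (vertical axis) of the 36 genes for Nutlin (left) and AICAR (right), with bars of 1 SE; red points are genes called in the interaction and the dashed line marks equal change. With Nutlin the 36 points lie above the dashed line, with UTP20 and DDX10 farthest from it, and with AICAR the points scatter along it.

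Genes of the cell cycle moved with this result. Of 20 proliferation genes 19 fell with Nutlin in sh-con, with a median of -2.78, against 18.9% of all genes tested. In sh-p53 0 were called and the median was -0.42. There 16 were lower at an unadjusted p under 0.05 in limma's test, against 564 of the 13813 genes tested. The mean of the 20 was 9.44 and 9.57 in the sh-con DMSO arrays, 6.75 and 6.97 in sh-con Nutlin and 9.01 and 9.18 in sh-p53 Nutlin. Its part in the result was not tested. With AICAR the same list had means of 9.24 and 9.37 in sh-con, with 7 genes lower and 4 higher, and of 9.39 and 9.54 in sh-p53, with 1 lower and 2 higher.

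With AICAR, ribosome biogenesis transcripts fell in both lines. In sh-con 26 of the 36 genes fell (72.2%) and 0 rose, against 23.2% of all genes tested called lower and 14.6% higher. Among genes at least as bright as the dimmest member, 34.1% were called lower. The median of the 36 was -0.62, or 65.1% of the DMSO level, beside 0.04 over all genes. In sh-p53 22 fell (61.1%) and 1 rose, against 21.6% and 16.2% of all genes tested and 31.7% lower among the bright genes, and the median was -0.47, or 72.4% of the DMSO level. The AICAR arrays lay below the DMSO arrays for 32 of the 36 in sh-con and 33 in sh-p53, against 36.2% and 33.3% of all genes. The count in sh-p53 was 14 without sh-p53 AICAR array 1. In both lines 21 genes fell (58.3%), against 16.7% of all genes tested and 24.5% of the bright ones.

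The RNA polymerase I genes divided with AICAR. POLR1A read 8.44 and 8.34 in sh-con AICAR against 9.32 and 9.22 in DMSO, and 8.39 and 8.54 in sh-p53 AICAR against 9.22 and 9.08. It fell by 0.88 ± 0.14 (adjusted p = 6.30e-05) and by 0.69 ± 0.14 (adjusted p = 0.000668), and POLR1B fell by 0.73 ± 0.15 and 0.76 ± 0.15. Each AICAR array of both core subunits lay below every DMSO array of its line. MYBBP1A fell by 0.92 ± 0.13 in sh-con and UBTF by 0.56 ± 0.13, and neither was called in sh-p53, at -0.30 ± 0.13 each. POLR1C read 9.09 and 8.88 in sh-con AICAR against 8.71 and 8.75 in DMSO, a change of 0.26 ± 0.14 that was not called (adjusted p = 0.154). RRN3 gave 0.27 ± 0.14 in sh-con and 0.26 ± 0.14 in sh-p53, with AICAR arrays above DMSO arrays in both lines. With quantile scaling POLR1C and RRN3 were called higher in both lines, at 0.31 to 0.33, and with median centring they were at 0.10 to 0.13 and not called.

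In sh-con the largest change with AICAR was that of a processome gene. UTP20 read 7.53 and 6.92 in sh-con AICAR against 8.98 in both DMSO arrays, and 7.76 and 7.85 in sh-p53 AICAR against 8.96 and 8.86. It fell by 1.76 ± 0.17 (adjusted p = 5.19e-07) in sh-con and by 1.11 ± 0.17 (adjusted p = 7.47e-05) in sh-p53. In both lines the AICAR arrays of UTP20 lay below every DMSO array, and the sh-con AICAR pair stood farther apart than its other pairs. HEATR1 and NOP14 each fell by 1.08 ± 0.16 in sh-con and by 0.62 ± 0.16 and 0.69 ± 0.16 in sh-p53. In each line 7 of the 10 processome genes fell, with RRP9 called in sh-con and UTP4 in sh-p53; the differences between the lines, 0.30 ± 0.19 and -0.17 ± 0.21, were not called. DDX10, among the largest falls with Nutlin, changed by -0.43 ± 0.17 and -0.45 ± 0.17 with AICAR and was called in neither line (adjusted p = 0.0578 and 0.0505).

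The 4 measured snoRNP genes all had negative changes with AICAR in sh-con, while in sh-p53 NOLC1 went the other way. DKC1 fell by 1.03 ± 0.15 in sh-con and by 1.11 ± 0.15 in sh-p53, and NOP58 and FBL fell in both lines by 0.35 to 0.65. The sh-p53 call of FBL was lost in 8 of the 12 fits that leave out 1 array (any but the sh-con AICAR and sh-p53 Nutlin arrays), with changes from -0.41 to -0.29 and adjusted p up to 0.236. Its sh-con call was lost without any 1 of the 4 arrays compared, with adjusted p up to 0.121. NOLC1 read 9.49 and 9.38 in sh-con AICAR against 9.70 and 9.63 in DMSO, a change of -0.24 ± 0.13 that was not called (adjusted p = 0.156). In sh-p53 it read 10.02 and 10.14 against 9.58 and 9.69 and rose by 0.44 ± 0.13 (adjusted p = 0.0127), to 136% of the DMSO level. It was the 1 gene of the 36 that rose with a compound on the deposited scale. This call was lost with median centring, at 0.29 (adjusted p = 0.162), without sh-p53 DMSO array 1, at 0.39 (adjusted p = 0.0947), and without sh-p53 AICAR array 2, at 0.38 (adjusted p = 0.0807).

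Among late small-subunit genes NOB1, TSR1, LTV1 and RRP12 fell with AICAR in both lines, by 0.64 to 1.29 in sh-con and by 0.40 to 0.73 in sh-p53. The sh-p53 call of LTV1 was lost in 7 of the 12 (without any sh-con DMSO, sh-con Nutlin or sh-p53 AICAR array, or sh-p53 DMSO array 2), with changes from -0.55 to -0.24. NOB1 read 8.19 and 7.70 in sh-con AICAR against 9.32 and 9.16 in DMSO, a fall of 1.29 ± 0.18 (adjusted p = 1.99e-05). BYSL changed by -0.06 ± 0.15 in sh-con, which turned to 0.01 with quantile scaling, and by -0.24 ± 0.15 in sh-p53. In the large-subunit list 6 of 8 fell in sh-con and 5 of 8 in sh-p53. RRS1, which helps to bring 5S RNA into the large subunit, read 7.11 and 7.16 in sh-con AICAR against 8.43 and 8.34, and 6.76 and 6.98 in sh-p53 AICAR against 7.98 and 8.42. It changed by -1.25 ± 0.17 and -1.33 ± 0.17 (adjusted p = 1.89e-05 and 1.04e-05), the largest fall of the 36 in sh-p53. BOP1 was called in neither line, at -0.14 and -0.18 on its brighter probe set and -0.44 and -0.34 on the other. Of the nucleolar proteins, DDX21 fell in both lines, by 0.69 ± 0.15 in sh-con and by 0.90 ± 0.15 in sh-p53. NPM1 fell by 0.45 ± 0.13 in sh-con and changed by -0.32 ± 0.13 in sh-p53 (adjusted p = 0.0669). NCL was called in neither line, at -0.23 ± 0.13 and -0.16 ± 0.13.

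The difference between the lines in the AICAR response was called at 0 of the 36 genes in limma's test, where 0.304% of all genes tested were called higher and 0.709% lower. Without adjustment 4 were under 0.05, all higher: NOLC1, MYBBP1A, UTP20 and NOB1. Of the 13813 genes tested, 942 were higher and 783 lower at that unadjusted p. The difference had a median of 0.06 and was largest for NOLC1, at 0.68 ± 0.18 (adjusted p = 0.0895, interval from 0.29 to 1.07), and MYBBP1A, at 0.62 ± 0.18 (adjusted p = 0.121, interval from 0.24 to 1.01). With quantile scaling these 2 were called, with adjusted p = 0.0219 and 0.0443. Without sh-con AICAR array 1 the count was 1. For DKC1, which fell in both lines, the difference was -0.08 ± 0.21 with an interval from -0.53 to 0.37.

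**Figure D4:**
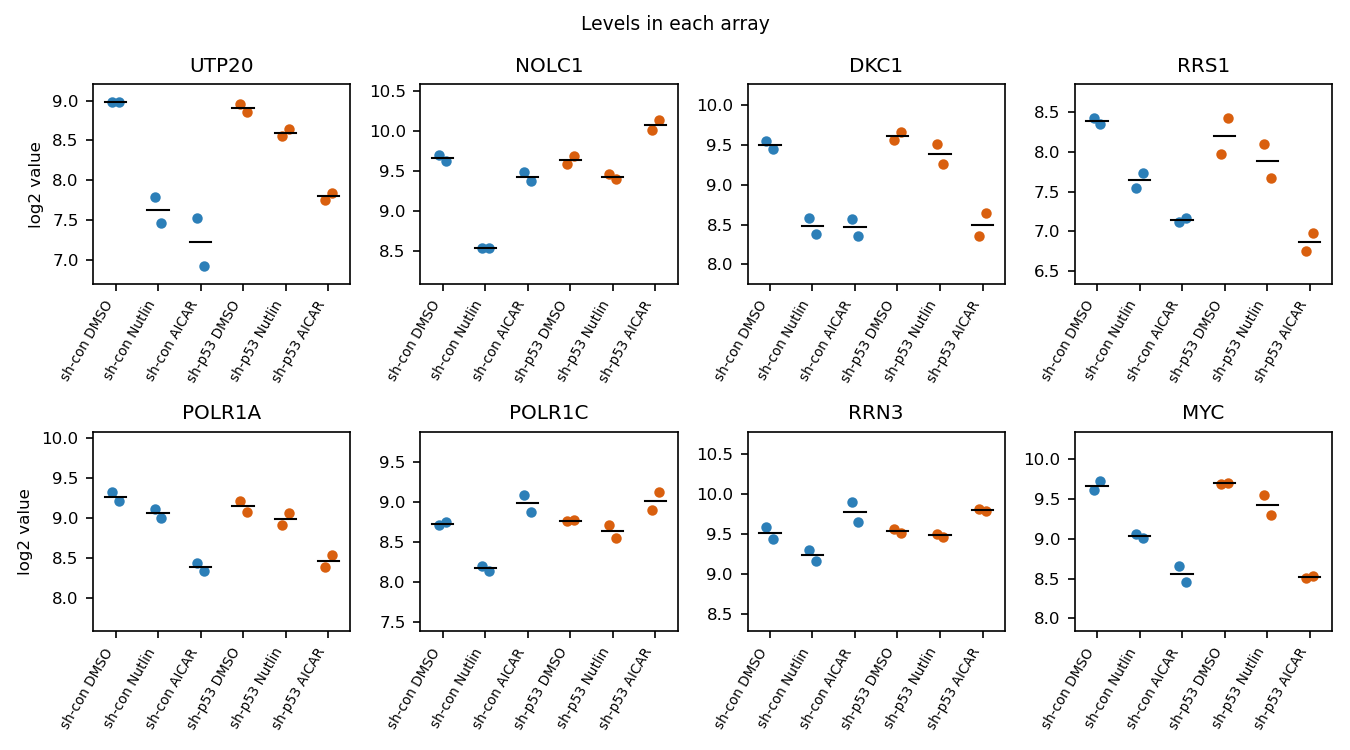
Log2 value (vertical axis, each panel spanning the same range) in the 2 arrays of each of the 6 groups (horizontal axis) for UTP20, NOLC1, DKC1, RRS1, POLR1A, POLR1C, RRN3 and MYC; points are arrays, bars are group means, blue is sh-con and orange sh-p53. NOLC1 is lowest with Nutlin in sh-con (8.53 and 8.54) and highest with AICAR in sh-p53 (10.02 and 10.14), while POLR1A is lowest with AICAR in both lines.

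The 2 compounds, at the doses named above, were also compared with each other within a line. In sh-con 8 of the 36 were lower with Nutlin than with AICAR (22.2%) and 4 higher (11.1%), against 16.9% and 17.9% of all genes tested. Among genes at least as bright as the dimmest member these shares were 22.6% and 22.8%. NOLC1 was lower by -0.90 ± 0.13 (adjusted p = 2.78e-05), POLR1C by -0.81 ± 0.14 (adjusted p = 0.000146), DDX10 by -0.77 ± 0.17 (adjusted p = 0.00184) and RRN3 by -0.55 ± 0.14 (adjusted p = 0.00405). BOP1, FBL, NCL and NOP58 were the other 4. Against DMSO the dimmer probe set of BOP1 changed by -0.19 with Nutlin and -0.44 with AICAR. The direction for BOP1 therefore depends on the probe set. The 4 that were higher with Nutlin were POLR1A, at 0.67 ± 0.14 (adjusted p = 0.000771), RRS1, at 0.50 ± 0.17, NOB1, at 0.47 ± 0.18, and WDR43, at 0.44 ± 0.14. Over the 21 fits NOB1 was called in 11, with changes from 0.23 to 0.72. NOP58, among the lower genes, was called in 9, with changes from -0.44 to -0.30. The lower count was 5 without sh-con Nutlin array 1, sh-con Nutlin array 2 or sh-con AICAR array 1, and the higher count was 2 without sh-con Nutlin array 1 and 1 without sh-con AICAR array 2.

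In sh-p53, where Nutlin moved none of these genes past the threshold, 17 of the 36 were higher with Nutlin than with AICAR (47.2%) and 2 lower (5.56%), against 19% and 15.6% of all genes tested. Among the bright genes 28.4% were higher and 16.1% lower. RRS1 differed by 1.02 ± 0.17 (adjusted p = 0.000166), DKC1 by 0.89 ± 0.15, WDR12 by 0.82 ± 0.15 and UTP20 by 0.80 ± 0.17. NOLC1 and POLR1C were lower with Nutlin, by -0.65 ± 0.13 (adjusted p = 0.000777) and -0.38 ± 0.14 (adjusted p = 0.0418), as they were in sh-con. The count of 17 was 8 without sh-p53 Nutlin array 1 and 6 without sh-p53 AICAR array 1. The count of 2 was 1 without any single array other than the sh-con AICAR pair and sh-p53 AICAR array 1, since POLR1C was then not called.

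Across Nutlin in sh-con and AICAR in each line, 17 of the 36 genes (47.2%) fell in all 3 responses, against 6.30% of all genes tested and 9.33% of those at least as bright as the dimmest member. The 5 that fell with Nutlin in sh-con and were called in neither AICAR response were DDX10, POLR1C, GRWD1, BOP1 and NCL. They were 13.9% of the 36, against 6.22% of all genes and 10.2% of the bright ones. BOP1 counts here on its brighter probe set. Its dimmer one changed by -0.19 with Nutlin and -0.44 with AICAR in sh-con. The 4 that fell with AICAR in both lines and were not called with Nutlin in sh-con were POLR1A, WDR43, RRP12 and DDX21. They were 11.1% of the 36, against 9.62% of all genes and 14.2% of the bright ones. Both shares lie near those of the bright genes. RRN3, WDR75 and BYSL were called in none of the 3, as were 39.2% of all genes and 28.3% of the bright ones. The 2 sh-con responses share their DMSO arrays, so their likeness is given as values side by side: UTP20 at -1.35 with Nutlin and -1.76 with AICAR, DKC1 at -1.01 and -1.03, RRS1 at -0.74 and -1.25, NOLC1 at -1.14 and -0.24, and POLR1A at -0.21 and -0.88. Between responses with no shared array, the 36 AICAR changes of the 2 lines correlated at Pearson r = 0.805 across genes (0.847 over all genes tested). The Nutlin changes of the 2 lines correlated at 0.501 (0.640 over all genes). Those with Nutlin in sh-con and AICAR in sh-p53 correlated at 0.152 (0.226 over all genes). Those with AICAR in sh-con and Nutlin in sh-p53 correlated at 0.427 (0.321 over all genes). Genes are not independent replicates.

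The responses of genes with an E-box in the window, such as UTP20 and FBL above, are set beside those without. With Nutlin in sh-con the median was -0.71 in the 13 with the motif, where 10 fell, and -0.60 in the 17 without, where 13 fell. With AICAR in sh-con the medians were -0.65 with and -0.56 without the motif, where 11 of 13 and 11 of 17 fell. With AICAR in sh-p53 both medians were -0.47, and 10 of 13 and 9 of 17 fell. No test was made of this split. MYC itself read 9.61 and 9.72 in sh-con DMSO, 9.06 and 9.01 with Nutlin and 8.66 and 8.46 with AICAR. In sh-p53 it read 9.68 and 9.70 in DMSO, 9.55 and 9.30 with Nutlin and 8.51 and 8.53 with AICAR. It fell by 0.63 ± 0.14 with Nutlin in sh-con (adjusted p = 0.00219) and by 1.11 ± 0.14 and 1.17 ± 0.14 with AICAR, and changed by -0.27 ± 0.14 with Nutlin in sh-p53 (adjusted p = 0.846). The Nutlin interaction of MYC, 0.36 ± 0.19, was not called (adjusted p = 0.333).

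The network of MYC and its partners held 13 genes, MYC included. MXD1, which competes with MYC for its partner MAX, rose by 2.20 ± 0.13 in sh-con and by 1.96 ± 0.13 in sh-p53 with AICAR, and by 0.42 ± 0.13 with Nutlin in sh-con. MGA, another MAX partner, fell by 1.30 ± 0.17 and 1.08 ± 0.17 with AICAR. Of the 13 genes 4 fell and 3 rose with AICAR in sh-con, against 23.2% and 14.6% of all genes tested, and 2 fell and 2 rose with Nutlin in sh-con, against 18.9% and 11.3%.

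A further 113 genes of ribosome biogenesis were listed in the same roles, and 109 were tested. With Nutlin in sh-con 66 fell (60.6%) and 0 rose, with a median of -0.45, against 18.9% and 11.3% of all genes tested, and in sh-p53 0 were called, with a median of -0.13. AICAR gave 51 lower (46.8%) and 5 higher (4.59%) in sh-con, against 23.2% and 14.6% of all genes. In sh-p53 it gave 44 lower (40.4%) and 6 higher (5.50%), against 21.6% and 16.2%. In the Nutlin interaction 9 were called higher (8.26%) and 0 lower, against 4.67% higher over all genes and 7.18% over the bright ones, and in the AICAR interaction 0 were called.

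By role the largest changes in these lists were the following. Of 15 further polymerase I subunits and factors 7 fell with Nutlin in sh-con, among them POLR1E, by 1.12 ± 0.15 (adjusted p = 1.41e-05), and TAF1A of the promoter selectivity factor SL1, by 0.96 ± 0.20. With AICAR another SL1 subunit, TAF1D, fell by 1.60 ± 0.13 in sh-con (adjusted p = 7.77e-08) and by 1.90 ± 0.13 in sh-p53 (adjusted p = 1.62e-08). TAF1C of the same factor rose by 0.60 ± 0.13 in sh-p53. Of 38 further processome and 40S genes 23 fell with Nutlin in sh-con, with the acetyltransferase NAT10 at -0.95 ± 0.14, and MPHOSPH10 fell by 1.22 ± 0.16 and 1.30 ± 0.16 with AICAR. The processome protein UTP3 rose by 0.75 ± 0.15 with AICAR in sh-con. Of 9 further snoRNP genes 7 fell with Nutlin in sh-con, with NHP2 of the H/ACA core at -1.01 ± 0.16. Of 47 large-subunit factors 29 fell, with MRTO4 at -1.20 ± 0.16, and the AAA-type ATPase MDN1 fell by 1.50 ± 0.17 with AICAR in sh-con.

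RNA polymerase III makes 5S rRNA and tRNAs. Of 18 subunits and factors 5 fell and 1 rose with Nutlin in sh-con, led by POLR3G at -1.46 ± 0.15 (adjusted p = 5.06e-07), and 0 were called in sh-p53. Over all genes tested 18.9% fell with Nutlin in sh-con. With AICAR 4 of the 18 fell in sh-con, and 5 fell and 1 rose in sh-p53, against 23.2% and 21.6% of all genes lower, so these counts lie near the background. Of 18 reference genes 5 fell with Nutlin in sh-con, with a median of -0.24 over the 18, and 0 rose. With AICAR 1 fell and 3 rose in sh-con, with a median of 0.03, and 2 fell and 4 rose in sh-p53, also with a median of 0.03. With AICAR the reference genes therefore lay on both sides of a median near that of all genes (0.04 and 0.07).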

How the data were processed

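HepG2 cells were plated at 700000 per well and treated, and 200 ng of their total RNA went onto each Affymetrix array, per the labels' protocols. Values were deposited as log2 numbers between 2.14 and 14.3. The submitters' processing notes name RMA, which corrects background, forces arrays towards a common distribution and summarises probes, and Partek; their versions are not given in the sources used here. Such scaling can remove in part a change shared by most transcripts, and its values carry no detection call.

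Of 33297 probe sets the platform annotation paired 19460 with 1 symbol and 1754 with several, and left 12083 unnamed here; 19429 of the single symbols were in the RefSeq table of GRCh38.p14. Each gene was read on its brightest single-symbol probe set, and those whose mean lay below the 25th percentile of all genes (4.58) were dropped, which kept 13813 of 18417. Every column of values matched 1 title, with 0 left over. Group means of the 12 arrays were fitted in 1 model with limma 3.58.1 (R 4.3.3, data.table package 1.17.8), with 6 residual degrees of freedom plus 11.3 from the empirical Bayes prior. Calls used Benjamini-Hochberg adjusted p-values, 2-sided, over all genes tested within each of 9 comparisons. The steps were tested on simulated data with known changes. Intervals are at 95%. Promoters and motifs were searched with Python 3.11.15, and figures were drawn with matplotlib 3.10.9. The targeted transcript is not reported here.

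Any member could be named. Full statistics were given for up to 4 called members with the largest change in each direction of a comparison, and in each role for the largest called and the smallest change with Nutlin in sh-con. Of the context lists up to 2 called genes in each direction were eligible. The members and lists were chosen with earlier results of these data known. Alternatives were a second quantile scaling, median centring, other filters on dim genes, the mean of a gene's probe sets, another variance model, only the groups compared, a replicate block and leaving out each array.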

Additional observations from a re-analysis of the deposited data

Results flagged for a closer look

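The Nutlin responses of 8 genes differed between the lines by a test of the difference itself, and each fell in sh-con and was not called in sh-p53 (limma, 2 arrays in each of 4 groups). The differences, sh-p53 response minus sh-con response on the log2 scale, were 1.04 for UTP20, 1.02 for DDX10, 0.93 for NOLC1, 0.83 for RRP9, 0.79 for DKC1, 0.73 for LTV1, 0.71 for NOP58 and 0.68 for TSR1, with adjusted p-values from 0.00288 for NOLC1 to 0.0494 for TSR1. With median centring DKC1, LTV1, NOP58 and TSR1 were not called, and TSR1 was called in 10 of 21 fits, LTV1 in 12, and DKC1 and NOP58 in 14. The remaining 28 measured members had differences of the same sign that were not called.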

How the results depend on the processing

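For the 41 single-gene results given full statistics by the rule for named genes, 779 of 820 values under the alternatives kept direction and side of the threshold, 40 were no longer called and 1 was newly called, with 0 reversed. Of the 820 values, 492 came from leaving out 1 array. Leaving out an array of a group not compared cannot move the change itself, so part of this count was fixed beforehand. Among other members, changes near 0 that were not called did turn sign, such as BYSL with AICAR in sh-con and POLR1A in the Nutlin interaction with quantile scaling. A second quantile scaling gave 2 members called higher with AICAR in sh-con, 3 with AICAR in sh-p53, 2 in the AICAR interaction and 11 for Nutlin against AICAR in sh-con. With median centring they were 0 with AICAR in sh-p53 and 4 in the Nutlin interaction, and Nutlin against AICAR had 4 members called lower in sh-con and 1 in sh-p53. With the trend and robust variance model 1 was higher in the AICAR interaction. With only the groups compared, Nutlin against AICAR gave 2 higher in sh-con and 1 lower in sh-p53. The cause was not tested. Median centring moved the changes of all genes by a median of -0.14 for AICAR in sh-con, of -0.15 for AICAR in sh-p53 and of 0.11 for Nutlin against AICAR in sh-p53. The share of higher genes among all calls moved from 38.7% to 22.0% with AICAR in sh-con, from 42.8% to 23.1% in sh-p53, from 30% to 16.9% in the AICAR interaction and from 55.0% to 69.2% for Nutlin against AICAR in sh-p53. The members' median stayed negative under both scalings with Nutlin in sh-con (-0.56 and -0.76) and with AICAR (-0.53 and -0.76 in sh-con, -0.40 and -0.62 in sh-p53).

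Leaving out each array in turn gave 23 to 29 members lower with Nutlin in sh-con, 21 to 27 with AICAR in sh-con and 14 to 23 with AICAR in sh-p53, where 0 to 1 were higher. The Nutlin interaction had 2 to 10 higher and the AICAR interaction 0 to 1. Nutlin against AICAR had 5 to 10 lower and 1 to 6 higher in sh-con, and 1 to 2 lower and 6 to 17 higher in sh-p53. Over all 21 fits, 22 of 28 calls with Nutlin in sh-con, and with AICAR 21 of 26 in sh-con and 13 of 23 in sh-p53, were made every time.

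With a replicate block 28 members were lower with Nutlin in sh-con, all 28 called without it. With AICAR DDX10 was gained in both lines and FBL lost in sh-p53, which gave 27 lower in sh-con and 22 in sh-p53. TSR1 was lost from the Nutlin interaction, leaving 7, and NOP58 from Nutlin against AICAR in sh-con, and no other call of a member changed. Same-numbered arrays of 2 groups correlated in their deviations from -0.56 to 0.57 over 15 pairs of groups, 7 of them over 0.1 and 7 under -0.1. The sh-p53 DMSO and sh-p53 AICAR groups correlated at 0.26 with each other and from -0.56 to 0.03 with the other groups. Those other groups correlated from 0.25 to 0.57 among themselves. A block by array number does not remove a shared deviation whose numbering differs between groups. With 2 arrays a group, array number limits the precision.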
